A study of Mus musculus with 10 samples.

Results

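Detoxification enzymes and efflux transporters were followed in mouse long-term hematopoietic stem cells, the rare bone marrow cells that rebuild blood after transplantation. The set holds 10 genes, chosen by symbol, of the 24544 genes in the deposited count table: the sulfotransferase Sult1a1, the glutathione transferases Gstm1, Gstm5 and Mgst1, the dehydrogenases Aldh1a1, Aldh2 and Adh5, and the ATP-binding cassette (ABC) transporters Abcg2, Abcb1a and Abcc1. All 10 were in the table, had counts in all 10 libraries and passed the filter on low counts. They were chosen by function, but with results of the only contrast of the series already known, so the levels and fold changes of these 10 genes are given as a description and nothing is rested on them.

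All libraries came from Hoxb5-mCherry mice, which carry a fluorescent reporter of Hoxb5, aged 2 to 3 months. Sorted cells were positive for cKIT, SCA1, CD150 and the Hoxb5 reporter, negative for Lin, CD48, FLK2 and CD34, and split by the surface receptor neogenin-1 into 5 NEO1+ and 5 NEO1- libraries. Each library held RNA of 250 to 500 cells from 2 pooled mice, so it averages over animals, and the labels do not say whether the fractions of one number came from the same mice. The series asks whether NEO1 separates myeloid-biased from balanced stem cells. In such bulk samples, fewer cells of a type and less RNA per cell cannot be told apart.

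As background, cells clear reactive and foreign small molecules in steps. Dehydrogenases oxidize alcohols and aldehydes, transferases attach sulfonate or glutathione to the product, and ABC transporters use ATP to pump the conjugates or the parent compound out of the cell. Blood stem cells are known for both ends of this route: dye efflux through ABC transporters and high aldehyde dehydrogenase activity have long been used to enrich them, and mice that lack Adh5 and Aldh2 together lose stem cells to endogenous formaldehyde.

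Total counts ran from 21.2 to 38.9 M per library. Between 12800 and 13808 genes had counts in NEO1+ and between 11477 and 13147 in NEO1- libraries, and the ribosomal RNA gene Rn45s took 27.9% to 37.7% and 30.7% to 42.4% of the counts. Levels are given as CPM, counts per M of the TMM-scaled library size, and a group mean is followed by ± its SD over the 5 libraries. A count of 0 allows up to 3 counts, or between 0.0699 and 0.144 CPM. The 10 long-term stem cell markers all had counts, and summed to 1819 to 1995 CPM (NEO1+) and 1673 to 2047 CPM (NEO1-). Neo1 was at 12.5 CPM in NEO1+ library 4, inside the NEO1- range of 4.56 to 18.9 CPM, and at 48.6 to 64.8 CPM in the other NEO1+ libraries. Hoxb5, the gene of the reporter, averaged 3.38 ± 0.93 CPM (NEO1+) and 1.40 ± 1.19 CPM (NEO1-). Granulocyte and monocyte progenitor markers (10 of 10 with counts) ran from 176 to 1471 CPM (NEO1+) and from 177 to 2798 CPM (NEO1-), highest in NEO1+ library 3 and NEO1- libraries 3 and 4. Neutrophil and macrophage markers ran from 350.4 to 3873 CPM (NEO1+, highest in libraries 3 and 1) and from 284 to 1043 CPM (NEO1-). Erythroid markers (7 of 10 with counts) ran from 27.1 to 451 CPM (NEO1+, highest in libraries 3 and 1) and from 9.74 to 212 CPM (NEO1-). Endothelial and stromal markers (8 of 10 with counts, Cdh5 and Lepr at 0) ran from 83.7 to 129 CPM (NEO1+) and from 41.5 to 91.6 CPM (NEO1-). B and T cell markers (5 of 9 with counts, mainly Cd79b) ran from 34.1 to 51.7 CPM (NEO1+) and from 26.2 to 60.9 CPM (NEO1-). The 10 cell cycle genes ran from 425 to 633 CPM (NEO1+) and from 164 to 310.2 CPM (NEO1-), with no overlap.

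Sequence bears on these counts because several of the genes have close copies. Gstm1 (chr3:108012255-108017973, minus strand; GRCm38, GENCODE M21, as are the other gene spans) and Gstm5 (chr3:107895821-107898686, plus strand) are both mu-class genes of one cluster. Their coding sequences agreed at 471 of 657 aligned bases (71.7%), with no shared 50-base stretch. Closer to Gstm1 were Gstm3 (89.5%, longest identical run 112 bases) and Gstm2 (86.0%, run 60 bases), and Aldh1a1 and Aldh1a7 agreed at 91.6% (run 100 bases). Abcb1a (chr5:8660077-8748575, plus strand) and its neighbour Abcb1b agreed at 3363 of 3822 bases (88.0%), with identical runs of up to 338 bases. Coding bases 121 to 180 are shown for the less alike pair of described genes, Gstm1 and Gstm5, and for the closer transporter pair. Differing bases are in capitals (12 of 60 in the first pair and 8 of 60 in the second).
Gstm1: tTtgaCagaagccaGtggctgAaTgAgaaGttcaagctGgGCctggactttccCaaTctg
Gstm5: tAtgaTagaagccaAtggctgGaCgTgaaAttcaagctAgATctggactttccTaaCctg
Abcb1a: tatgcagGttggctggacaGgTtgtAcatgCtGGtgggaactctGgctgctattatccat
Abcb1b: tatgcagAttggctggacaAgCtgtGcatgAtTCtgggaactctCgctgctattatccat

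Of all distinct 50-base stretches of the protein-coding transcripts of each gene, the share also found in transcripts of another gene was 18.6% for Abcb1a (mostly Abcb1b), 19.9% for Gstm1 (mostly the pseudogene Gstm2-ps1), 12.2% for Gstm5 (all 4933431E20Rik), 7.36% for Sult1a1, 6.06% for Aldh1a1 (all Aldh1a7) and 1.91% for Aldh2. It was 0 for Mgst1, Adh5, Abcg2 and Abcc1. The counting rule for reads with several matches is not given in the sources used here, so levels of Abcb1a and Gstm1 carry the most uncertainty of this kind.

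Promoters were read for motifs of the regulators of this pathway. The RefSeq promoter table (GRCm38.p6) matched 8 of the 10 genes with 14 start sites, all but Aldh2 and Abcc1, and the 250 bases before each start were searched on both strands. The antioxidant response element core, TGACNNNGC, bound by NRF2, was found in 2 of the 14 windows, 1 of Mgst1 and 1 of Gstm5, against 10.2% of all 32851 windows of this length. The xenobiotic response element core, GCGTG, bound by the aryl hydrocarbon receptor, was found in both Gstm1 windows, which overlap and hold the same site, and in that of Gstm5, against 28.2% of all windows. In Gstm5 one GCGTG match overlaps the antioxidant core. The Mgst1 and Gstm5 windows are shown because they hold the antioxidant core, and that of Sult1a1 because its levels did not overlap between the groups; capitals mark motif matches, of which Sult1a1 has 0. A match is a description of the letters and not a measured binding site.
Mgst1, chr6:138140277-138140526, plus strand: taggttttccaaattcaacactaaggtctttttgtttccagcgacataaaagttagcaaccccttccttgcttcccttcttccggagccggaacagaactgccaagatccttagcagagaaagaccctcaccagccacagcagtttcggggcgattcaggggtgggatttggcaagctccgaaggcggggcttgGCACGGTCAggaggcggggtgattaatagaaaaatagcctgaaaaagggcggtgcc
Gstm5, chr3:107895604-107895853, plus strand: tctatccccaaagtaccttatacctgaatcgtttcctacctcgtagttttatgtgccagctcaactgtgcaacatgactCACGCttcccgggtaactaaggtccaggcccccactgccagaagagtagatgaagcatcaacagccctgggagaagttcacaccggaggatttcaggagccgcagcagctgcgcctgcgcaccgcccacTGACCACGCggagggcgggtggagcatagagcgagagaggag
Sult1a1, chr7:126676419-126676668, minus strand: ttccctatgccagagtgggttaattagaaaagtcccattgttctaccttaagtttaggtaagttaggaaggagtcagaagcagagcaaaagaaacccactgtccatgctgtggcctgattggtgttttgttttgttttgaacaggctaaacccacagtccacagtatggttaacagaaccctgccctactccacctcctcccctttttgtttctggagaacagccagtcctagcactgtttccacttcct

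Across the 10 genes, Sult1a1 and Abcc1 had the highest mean levels in NEO1+ relative to NEO1- libraries and Mgst1 the lowest, while Aldh2 was at the same mean level in both. Genes were tested over the whole table with the quasi-likelihood test of edgeR and Benjamini-Hochberg adjustment over 12203 genes. Of the 10, 0 passed 0.05, and the share of all genes that passed was 0%. Neo1, the gene of the receptor that split the groups, did not pass either (log2 fold change 2.16, edgeR adjusted p 0.248). DESeq2 did call Neo1 (DESeq2 adjusted p 0.00044). An edgeR adjusted p over 0.05 here therefore does not show that the groups were alike. At an unadjusted p under 0.05, 3 of the 10 stood (2 higher and 1 lower in NEO1+), beside 6.6% of all genes. DESeq2 called 1 of the 10, Sult1a1, beside 0.986% of all genes, at a DESeq2 adjusted p of 0.0478, just under the threshold. With the library number as a block DESeq2 called 2, Sult1a1 and Abcc1, beside 5.7%. Limma-voom and limma-trend called 0. Levels in the groups did not overlap for 1 of the 10, Sult1a1, beside 2.48% of all genes (1.35% higher and 1.13% lower in NEO1+). Of the 10 log2 fold changes 5 were positive and 5 negative, with a median of 0.04 beside 0.01 over all genes tested. Since the contrast was known when the genes were chosen, nothing is read from these counts.

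**Figure D1:**
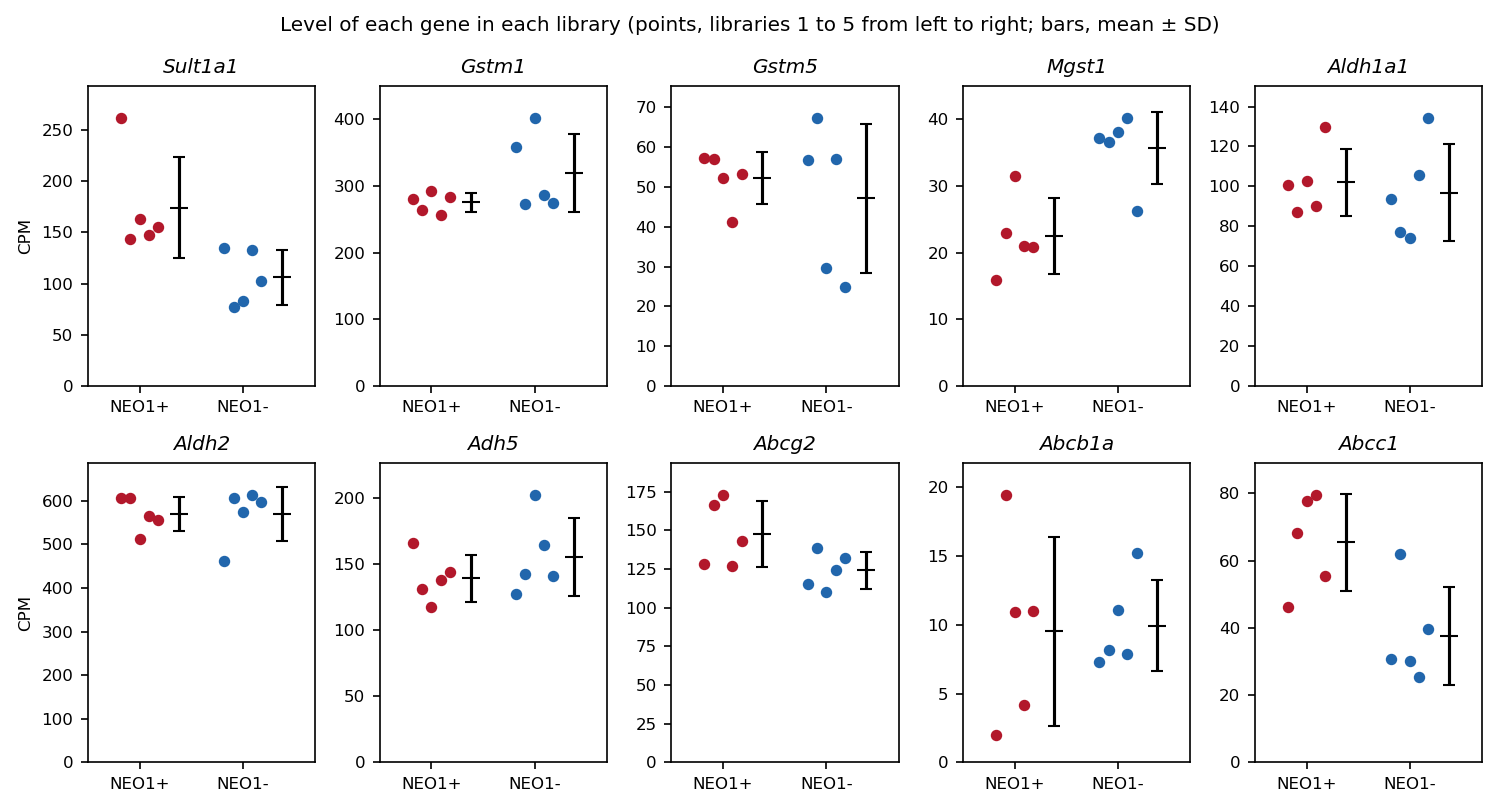
Level in CPM (vertical axes, starting at 0) of each of the 10 genes in the 5 NEO1+ (red) and 5 NEO1- (blue) libraries; points are libraries 1 to 5 from left to right and bars are the mean ± SD. All 5 NEO1+ points of Sult1a1 lie above the 5 NEO1- points, from 144 to 262 against 77.5 to 135 CPM, while the groups overlap for the other 9 genes.

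Sult1a1 (chr7:126672865-126676432, minus strand) encodes a phenol sulfotransferase, which moves sulfonate from the donor PAPS onto phenols and related compounds. The NEO1+ libraries, from 1 to 5, held 262, 144, 163, 148 and 155 CPM, the NEO1- libraries 135, 77.5, 83.2, 133 and 103 CPM. Every NEO1+ library was above every NEO1- library, though the distance between the lowest of one group and the highest of the other was small, and NEO1+ library 1 stood well above the rest. The means were 174 ± 49.4 and 106 ± 27.0 CPM, and the fitted log2 fold change was 0.71 with an SE of 0.21 (adjusted p from edgeR 0.437). Leaving out NEO1+ library 1 gave 0.52 (edgeR adjusted p 0.745), and leaving out NEO1+ library 4, the one with low Neo1, gave 0.77 (0.626). NEO1+ library 1 also had 319 CPM of erythroid and 2466 CPM of neutrophil and macrophage markers, and NEO1+ library 3, where Sult1a1 was at 163 CPM, had 451 and 3873 CPM. The part of those cells in the level of Sult1a1 was not tested.

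The donor for that reaction comes from Papss1 and Papss2, the PAPS synthases. Papss1 averaged 62.6 ± 15.4 CPM (NEO1+) and 74.6 ± 18.8 CPM (NEO1-), so its difference lay in the other direction and within the spread. Papss2 had counts in 7 of the 10 libraries, at a mean of 0.708 and 2.59 CPM. The sulfotransferase relatives Sult1b1 and Sult1d1 had 0 counts in every library.

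Gstm1 encodes a mu-class glutathione transferase of the cytosol. Its levels, from library 1 to 5, were 281, 264, 292, 257 and 283 CPM (NEO1+) against 359, 274, 402, 286 and 274 CPM (NEO1-). The NEO1+ libraries were close together, and NEO1- libraries 1 and 3 lay above all others. The means of 275 ± 14.5 and 319 ± 58.3 CPM differed by -0.21 on the log2 scale (SE 0.12, edgeR adjusted p 0.824). The difference was -0.02 once genes detected per library was a covariate. Genes detected was higher in NEO1+ than in most NEO1- libraries, so such a fit, here and below, can hardly separate it from the group.

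Gstm5, a second mu-class transferase of the same cluster, read 57.2, 57.1, 52.3, 41.2 and 53.2 CPM (NEO1+ 1 to 5) against 56.8, 67.3, 29.7, 57.0 and 24.7 CPM (NEO1- 1 to 5). The NEO1- values ran from below to above all of the NEO1+ values, with libraries 3 and 5 low. The log2 fold change was 0.15 (SE 0.27; edgeR adjusted p 0.998) and was -0.01 without NEO1- library 5.

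Mgst1 (chr6:138140316-138156755, plus strand) encodes a microsomal glutathione transferase, a membrane protein of the endoplasmic reticulum and mitochondria from another protein family than the mu class. Libraries 1 to 5 of NEO1+ held 15.9, 22.9, 31.5, 21.0 and 20.8 CPM, those of NEO1- 37.2, 36.6, 38.1, 40.2 and 26.3 CPM. In 4 of the 5 NEO1+ libraries the level was below that of every NEO1- library, and NEO1+ library 3 and NEO1- library 5 made the overlap. The means of 22.4 ± 5.69 and 35.7 ± 5.42 CPM stood -0.67 apart on the log2 scale (SE 0.25; edgeR adjusted p 0.604). Progenitors of granulocytes and monocytes also express Mgst1, and the summed markers of those cells were uneven across libraries, as given above. The value became -0.64 with NEO1- library 3 left out, -0.62 with NEO1- library 4 left out and -0.82 with NEO1+ library 3 left out. These are the libraries highest in those markers. The part of such cells in the level of Mgst1 was not tested, and leaving out 1 library at a time does not test it.

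Relatives of these transferases showed no shared direction. Gstm2 averaged 24.4 ± 7.24 CPM (NEO1+) and 13.0 ± 6.17 CPM (NEO1-; log2 fold change 0.91, SE 0.42, edgeR adjusted p 0.750), whereas Gstm4 was at 23.8 and 19.2 CPM, Gstm7 at 22.1 and 21.9 CPM and Gstm6 at 1.40 and 2.23 CPM. Gstm3, which shares 124 of its 50-base stretches with Gstm1, had 0 counts in all libraries. Mgst2 was at 5.16 and 7.39 CPM and Mgst3 at 9.78 and 7.38 CPM, neither beyond its spread. Gstp1, the pi-class transferase, averaged 86.0 ± 4.83 CPM (NEO1+) and 117 ± 22.1 CPM (NEO1-), -0.44 on the log2 scale (SE 0.15, edgeR adjusted p 0.548) and -0.25 with genes detected as a covariate.

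Aldh2 (chr5:121566027-121593824, minus strand) encodes the mitochondrial dehydrogenase that clears acetaldehyde and other small aldehydes. From library 1 to 5 it read 606, 608, 512, 566 and 557 CPM in NEO1+ against 462, 605, 573, 614 and 596 CPM in NEO1-. The groups covered nearly the same range, with NEO1- library 1 lowest. The means were 569.8 ± 39.4 and 570.2 ± 62.3 CPM, 0.00 apart on the log2 scale with an SE of 0.09 (edgeR adjusted p 0.9997). That SE makes Aldh2 the most precisely compared of the 10 genes.

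Adh5 (chr3:138443093-138455499, plus strand) encodes the glutathione-dependent enzyme that oxidizes formaldehyde. Its levels, library by library, were 166, 131, 118, 138 and 144 CPM (NEO1+) against 128, 142, 203, 164 and 142 CPM (NEO1-). The groups overlapped over most of their range and NEO1- library 3 was highest. The log2 fold change was -0.16 (SE 0.14; edgeR adjusted p 0.952), and -0.07 with genes detected as a covariate.

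Aldh1a1 (chr19:20492715-20643465, plus strand) encodes a cytosolic dehydrogenase that makes retinoic acid from retinal. NEO1+ libraries held 101, 87.3, 103, 90.4 and 129.8 CPM, and NEO1- libraries 93.5, 76.9, 74.1, 106 and 134 CPM. Library 5 was the highest of both groups, and the groups overlapped. The log2 fold change was 0.08 (SE 0.18; edgeR adjusted p 0.998), with a different sign without NEO1+ library 5 (-0.02) and without NEO1- library 3 (-0.01). Its close copy Aldh1a7 had counts in 4 libraries and at most 207 counts, and its relative Aldh1a2 had 0. Aldh1b1, a mitochondrial relative of Aldh2, was at 9.19 ± 5.29 and 12.8 ± 9.16 CPM, and Adh1 had counts in 2 libraries.

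Among the transporters, Abcg2 (chr6:58584523-58695676, plus strand) is the pump behind the dye-excluding side population of stem cells. Its levels were 128, 166, 173, 127 and 143 CPM (NEO1+ 1 to 5) against 115, 139, 110.0, 124 and 132 CPM (NEO1- 1 to 5). In 3 of the 5 NEO1+ libraries the level was above all NEO1- libraries, and the lowest 2 lay inside their range. The means of 147 ± 21.3 and 124 ± 11.7 CPM lay 0.25 apart on the log2 scale (SE 0.13; edgeR adjusted p 0.807), and 0.09 apart with genes detected as a covariate.

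Abcc1 (chr16:14361558-14475737, plus strand) encodes a pump that exports glutathione conjugates, among them leukotriene C4. By library, 46.2, 68.1, 77.7, 79.6 and 55.5 CPM were measured in NEO1+ against 30.9, 61.9, 30.2, 25.4 and 39.5 CPM in NEO1-. NEO1- library 2 lay among the NEO1+ libraries, and the other NEO1- libraries lay below all of them. The means of 65.4 ± 14.4 and 37.6 ± 14.5 CPM were 0.80 apart on the log2 scale (SE 0.26; edgeR adjusted p 0.547). That distance was 1.06 with NEO1- library 2 left out (edgeR adjusted p 0.417) and 0.72 with NEO1+ library 4 left out (0.804). The summed cell cycle genes were also higher in every NEO1+ library, and their part in the levels of Sult1a1, Abcc1 and Mgst1 was not tested.

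Abcb1a encodes a P-glycoprotein, the pump that expels rhodamine dyes and many drugs. It had the fewest counts of the set, with 2.02, 19.4, 11.0, 4.17 and 11.0 CPM (NEO1+ 1 to 5) against 7.32, 8.19, 11.1, 7.84 and 15.2 CPM (NEO1- 1 to 5). The NEO1+ libraries spread around the NEO1- libraries on both sides. The lowest value rested on 42 counts (95% Clopper-Pearson interval 1.45 to 2.73 CPM) and the highest on 760 counts (18.1 to 20.9 CPM), so these intervals were narrow beside the differences between libraries. The log2 fold change, -0.06 with an SE of 0.61 and an edgeR adjusted p of 0.9997, turned to 0.20, 0.13 and 0.14 when NEO1+ library 1, NEO1+ library 4 or NEO1- library 5 was left out, and was -0.50 when NEO1+ library 2 was. Abcb1b was at 23.9 ± 13.8 and 22.9 ± 12.4 CPM. Of the counts of both copies, Abcb1a held between 4.28% in NEO1+ library 1 and 67.7% in NEO1+ library 2. The summed level of the copies was 33.4 ± 9.05 CPM (NEO1+) and 32.8 ± 14.8 CPM (NEO1-).

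**Figure D2:**
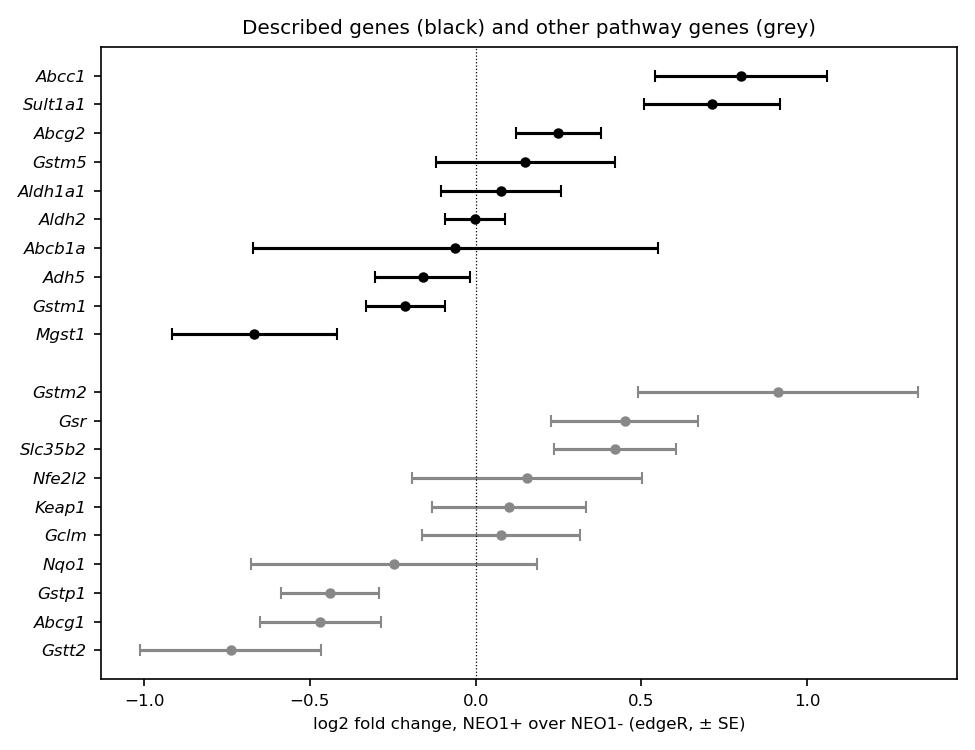
Log2 fold change of NEO1+ over NEO1- libraries (horizontal axis; edgeR, bars are ± SE, 5 libraries a group) for the 10 described genes (black) and 10 other genes of the pathway (grey). Abcc1 at 0.80 and Sult1a1 at 0.71 lie farthest to the right of the black points, Mgst1 at -0.67 farthest to the left, and none passed adjustment over all genes.

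Levels were put in order per length, as RPKM (CPM per kb of the longest protein-coding transcript in GENCODE M21). Gstm1 was highest at 231 ± 35.8 RPKM (SD over 10 libraries, as for those that follow). Next came Aldh2 at 147 ± 12.7, Sult1a1 at 102 ± 37.9, Adh5 at 92.0 ± 15.3, Gstm5 at 52.6 ± 14.3 and Aldh1a1 at 42.2 ± 8.47 RPKM. Mgst1 at 24.9 ± 7.47, Abcg2 at 23.7 ± 3.56, Abcc1 at 7.58 ± 2.95 and Abcb1a at 1.95 ± 1.01 RPKM closed the order.

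Most neighbours in that order kept their places in every library or in 9 of 10, and 2 pairs did not. Sult1a1 exceeded Adh5 in 5 of 5 NEO1+ but 1 of 5 NEO1- libraries, and Mgst1 exceeded Abcg2 in 0 of 5 NEO1+ and 4 of 5 NEO1- libraries. With the length of all exons merged in place of the longest transcript, Adh5 moved from 92.0 to 27.3 RPKM and below Gstm5 at 38.9 RPKM. Sult1a1 was then at 93.1 RPKM, so its change of order with Adh5 between groups holds for the longest transcript only. Mgst1 moved below Abcg2 (14.4 and 16.6 RPKM), while the first 3 and the last 2 genes kept their places.

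**Figure D3:**
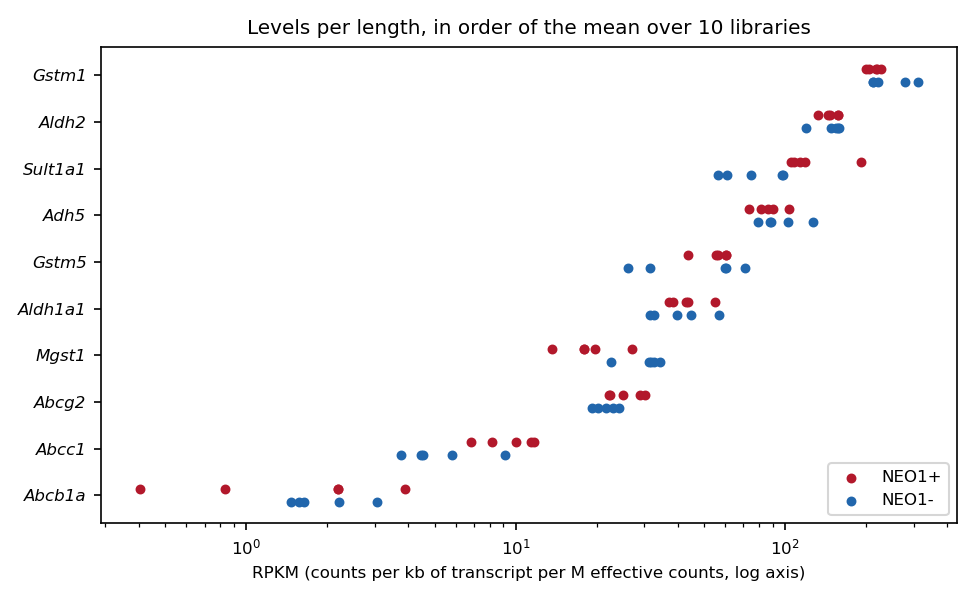
Level per length (horizontal log axis, RPKM) of the 10 genes in each NEO1+ (red) and NEO1- (blue) library, ordered by the mean over 10 libraries. Gstm1 at a mean of 231 RPKM lies above Aldh2 in all 10 libraries, and Abcb1a, at a mean of 1.95 RPKM, lies below the other genes.

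The genes also differed in how evenly they were held within a group. The SD of log2 CPM was set beside the median SD of all tested genes with a mean level within 0.5 log2 units. Gstm1 was even in NEO1+ libraries, at an SD of 0.0762 beside a median of 0.150 over 290 genes, and not in NEO1- libraries, at 0.254 beside 0.215. Sult1a1 was less even than such genes in both groups, at 0.356 beside 0.193 in NEO1+ and 0.371 beside 0.296 in NEO1- libraries. In NEO1+ that SD rested on library 1, at 8.03 log2 CPM, while libraries 2 to 5 lay between 7.17 and 7.35.

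Abcb1a stood out in NEO1+ libraries at 1.29 beside 0.606, but was at 0.437 beside 1.15 in NEO1- libraries. Mgst1 in NEO1- libraries (0.243 beside 0.575) and Abcg2 in NEO1- libraries (0.136 beside 0.291) were more even than genes of like level, and Gstm5 in NEO1- libraries (0.643 beside 0.447) less so. Aldh2 and Aldh1a1 stayed near the median in both groups. For 7 of the 10 genes the SD was larger in NEO1- than in NEO1+ libraries, as it was for 78.3% of all genes tested.

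**Figure D4:**
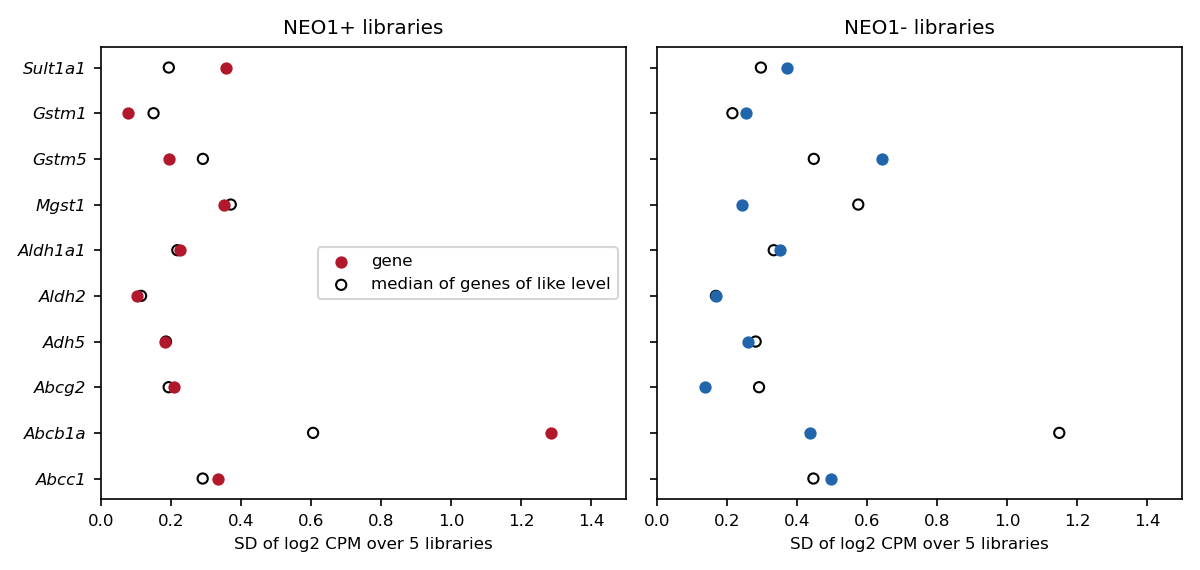
SD of log2 CPM over 5 libraries (horizontal axes) of each gene (filled) and the median SD of all tested genes of like level (open) in NEO1+ (left) and NEO1- (right) libraries. Gstm1 in NEO1+ libraries (0.0762) lies left of its open point (0.150), and Abcb1a lies right of its open point in NEO1+ (1.29 against 0.606) and left of it in NEO1- libraries (0.437 against 1.15).

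With the group means removed, the 10 genes did not vary as one block. Of the 45 pairs, 20 had a positive Pearson correlation of log2 CPM over the 10 libraries, and the median r was -0.02. The strongest positive pairs joined Abcg2 to the other transporters, Abcb1a (r 0.68) and Abcc1 (r 0.53), followed by the aldehyde enzymes Aldh2 and Adh5 (r 0.51). The remaining transporter pair, Abcb1a with Abcc1, was at r 0.27. The strongest negative pair was Sult1a1 with Abcc1 (r -0.72), the 2 genes with the highest mean levels in NEO1+ relative to NEO1-. These values describe 10 libraries whose points share depth and scaling. Apart from Abcb1a with Abcc1, the named pairs are the extremes of 45, and correlations between other genes were not set beside them.

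The wider pathway was read from lists of 161 other genes chosen by function, of which 160 were in the table, 121 had counts and 101 were tested. Of the 101, 0 passed the edgeR test adjusted over all genes, 2 were higher and 3 lower in NEO1+ at an unadjusted p under 0.05 (beside 3.11% and 3.49% of all genes), and DESeq2 called 0. The median log2 fold change was 0.02, beside 0.01 over all genes tested, with 53 positive and 48 negative. By list, the medians were -0.19 for glutathione transferases (15 tested), -0.22 for glutathione supply (9), 0.05 for aldehyde and alcohol dehydrogenases (11), 0.31 for sulfation (8), -0.06 for other drug metabolism (23), 0.07 for ABC transporters (24) and 0.00 for regulators (11). Several of the 8 sulfation genes had 0 counts in some libraries and SEs of 1.45 to 1.94, so that median rests partly on genes near the floor.

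The genes of smallest p on each side were named by a fixed rule, and none of them passed. On the NEO1+ side these were Gstm2, Slc35b2, the carrier of PAPS into the Golgi (69.8 ± 8.60 and 52.1 ± 12.0 CPM, log2 fold change 0.42, SE 0.18, edgeR adjusted p 0.721), and Gsr, which regenerates reduced glutathione (101 ± 33.4 and 74.3 ± 14.4 CPM, 0.45, SE 0.22, edgeR adjusted p 0.790). On the NEO1- side they were Gstp1, the theta-class transferase Gstt2 (26.2 ± 7.02 and 43.7 ± 14.6 CPM, -0.74, SE 0.27, edgeR adjusted p 0.604, and -0.18 with genes detected as a covariate) and Abcg1, a transporter of cholesterol (71.3 ± 18.3 and 98.6 ± 8.36 CPM, -0.47, SE 0.18, edgeR adjusted p 0.633).

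The group means of regulators and their textbook targets lay within their spread. Nfe2l2, which encodes NRF2, averaged 106 ± 31.8 CPM (NEO1+) and 95.1 ± 52.0 CPM (NEO1-), and Keap1, its inhibitor, 125 ± 24.6 and 117 ± 38.9 CPM. The NRF2 target Nqo1 was at 15.5 ± 6.05 and 18.3 ± 9.18 CPM, Gclc, the catalytic subunit of glutathione synthesis, at 35.1 ± 22.9 and 47.8 ± 11.2 CPM, and its partner subunit Gclm at 113 ± 21.3 and 107 ± 39.2 CPM. For Gclc, 4 NEO1+ libraries lay below every NEO1- library and 1, at 73.6 CPM, above all of them. Its log2 fold change was -0.44 and ran from -0.91 to -0.27 with 1 library left out. Ahr, the aryl hydrocarbon receptor, was at 19.4 ± 20.2 and 19.1 ± 11.9 CPM. The conjugate and nucleotide pumps Abcc4 and Abcc5 were at 44.0 ± 12.5 and 58.9 ± 16.2 CPM and at 20.8 ± 4.89 and 18.3 ± 3.59 CPM. Each of these 8 had an edgeR adjusted p of at least 0.864, which does not show that the groups were alike.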

How the data were processed

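RNA was measured in 10 Smart-seq2 libraries (oligo-dT priming, 18 cycles of PCR, then Nextera tagmentation of 40 ng of cDNA, per the labels' protocols). The authors deposited raw counts per gene symbol and, in another table, log2 values; each log2 value equalled log2 of the count over 1 constant per library, plus 1, and the deposited file is named for DESeq2 size factors. The submitters' processing notes name bcl2fastq 2.18, STAR 2.4, DESeq2 1.22.2 and the build mm10; the counting tool, annotation and strand use are not given in the sources used here. Reads carried no molecular identifiers, so intervals and floors cover counting error only.

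In R 4.3.3, edgeR 4.0.16 tested the counts with its robust quasi-likelihood fit after filterByExpr and TMM scaling, with no covariate and a threshold of 0.05 (Benjamini-Hochberg over 12203 genes). A standard error is the size of the log2 fold change divided by the root of its F statistic. Log2 CPM used a prior count of 2. P-values measure the spread between these libraries, which may be partly technical. DESeq2 1.42.0 and limma 3.58.1 were alternatives, and the scripts were tested on simulated data. The 10 genes, the lists, the alternatives and the rule for named genes (the 10 genes, fixed relatives, and the 3 pathway genes of smallest p on each side where fewer than 3 pass) were chosen with earlier results of these data known; Tpmt, Abcc3, Epas1, Clu and Lars2 were named after their values were seen. The smallest chi-square per degree of freedom between libraries of a group was 83.1, so no library was a resequenced copy of another in its group. Libraries were not compared in this way across the groups.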

Additional observations from a re-analysis of the deposited data

Results flagged for a closer look

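In 20 groups of 5 values (10 genes in both groups, log2 CPM), 4 had 1 library far from the other 4: its gap, as a share of the whole range, was over 0.71 (Dixon's 95% limit), which chance gives in about 1.

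Sult1a1 was at 8.03 log2 CPM in NEO1+ library 1, the highest of its group; the log2 fold change was 0.52 without it and 0.71 with it. Gstm5 was at 5.37 log2 CPM in NEO1+ library 4, the lowest of its group; the log2 fold change was 0.22 without it and 0.15 with it. Mgst1 was at 4.72 log2 CPM in NEO1- library 5, the lowest of its group; the log2 fold change was -0.76 without it and -0.67 with it. Aldh2 was at 8.85 log2 CPM in NEO1- library 1, the lowest of its group; the log2 fold change was -0.07 without it and 0.00 in size with it.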

How the results depend on the processing

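Over 19 alternatives per gene, Sult1a1, Abcc1 and Abcg2 stayed higher and Mgst1, Gstm1 and Adh5 lower in NEO1+. With genes detected as a covariate, however, Gstm1 was -0.02, Adh5 -0.07 and Abcg2 0.09, all nearer 0 by over 1.5 times, while Sult1a1 was 0.69, Abcc1 0.73 and Mgst1 -0.88. That covariate ran largely with the group, and in the same fit Neo1 moved from 2.16 to 3.11, so no cause is read from these values. Of the 190 log2 fold changes 174 kept their sign. Those that did not belonged to Aldh2, at 0.0022 with no filter on low counts, 0.0031 with the replicate block and -0.068 to 0.034 with 1 library left out; to Aldh1a1, at -0.14 with genes detected as a covariate and -0.025 to 0.22 with 1 library left out; to Abcb1a, at -0.50 to 0.20; and to Gstm5, at -0.012 to 0.31. The cause was not tested.

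The count of genes called over the table was 0 in edgeR, 120 in DESeq2, 2 with no filter on low counts (Clu and Lars2), 2 with limma-voom (the same 2), 1 with limma-trend on the deposited values (Clu), and 0 to 1 with 1 library left out (Clu, without NEO1- library 1). Of the 10 genes, DESeq2 called 1 (Sult1a1). The median of the 101 pathway genes was 0.15 with limma-voom and 0.12 with limma-trend, where the median over all genes tested moved to 0.12 and 0.11.

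Same-numbered libraries had correlations of 0.00 to 0.04 in their deviations from the group means, and 4 of 10 libraries correlated best with their own number. These values were not set beside those given by chance and cannot exclude pairing. The labels do not give pairs, so the main fit did not use the numbers. With the replicate block edgeR called 0 genes (874 at an unadjusted p under 0.05), and DESeq2 with the block called 695 genes (5.7% of all), 2 of the 10 genes (Sult1a1 at 0.71 and Abcc1 at 0.84) and 3 pathway genes (Tpmt, Abcc3 and Epas1). Under the block the log2 fold change of Abcb1a was -0.41. Depth limits Abcb1a most, with 42 counts in 1 library.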

Other observations

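Tpmt, which encodes thiopurine methyltransferase, the enzyme that inactivates thiopurine drugs, was the pathway gene outside the described set whose groups did not overlap (1 of 101, beside 2.48% of all genes); it was chosen after its values were seen. It had 91, 250, 264, 200 and 100 counts in NEO1+ libraries 1 to 5 (2.90 to 6.40 CPM) and 0, 1, 0, 0 and 79 counts in NEO1- libraries 1 to 5. NEO1- library 5, at 2.61 CPM, lay just below the lowest NEO1+ library, and the other NEO1- libraries were at or under the level of 3 counts. It did not pass the edgeR test adjusted over all genes (adjusted p 0.815; 0.181 to 0.9999 with 1 library left out).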
